A study of Mus musculus with 4 samples.

Results

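The genes described here are the sensors and transcription factors of the unfolded protein response (UPR): *Ern1*, *Eif2ak3*, *Atf6*, *Atf6b*, *Xbp1*, *Atf4* and *Ddit3*. They were chosen by their symbols, and these 7 symbols hold 8 of the 32286 features in the count tables, since *Ddit3* is listed under 2 gene identifiers. The second *Ddit3* identifier (ENSMUSG00000116429) had 0 UMIs in each of the 4 libraries, so the first (ENSMUSG00000025408) is the *Ddit3* of every value given here. Nuclei were sorted from cortex with hippocampus of C57BL/6J mice aged 5 weeks, and 1 library was made from each of 4 mice. By the labels and the study's description, both groups are homozygous for floxed *Sel1L* alleles. The 2 control mice are labelled Sel1L flox/flox (Sel1L fl/fl), and the other 2 are labelled Sel1L Syn-Cre (Sel1L SynCre) and also carry a Cre transgene driven by the Synapsin I promoter, which is active in neurons. SEL1L is the adaptor of the ubiquitin ligase HRD1 in ER-associated degradation (ERAD). The comparison asks how RNA in each cell type differs when Cre removes SEL1L from a part of the neurons. By the study's staining, SEL1L was lost in some cortical neurons and in nearly all neurons of hippocampal CA3 and the dentate gyrus, but largely kept in CA1. A cell type can therefore mix nuclei of neurons with and without SEL1L.

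The UPR is the signalling response to misfolded protein in the ER. Its sensors sit in the ER membrane. IRE1α, encoded by *Ern1*, is a kinase and RNase that splices the *Xbp1* mRNA, and PERK, encoded by *Eif2ak3*, is a kinase that phosphorylates the translation factor eIF2α. ATF6, with its close relative ATF6B, is a transcription factor held in the membrane until it is cleaved in the Golgi. Downstream of them, spliced XBP1 and cleaved ATF6 raise chaperones and ERAD factors, ATF4 is translated when eIF2α is phosphorylated, and CHOP, encoded by *Ddit3*, is a transcription factor induced under prolonged stress. Splicing, phosphorylation, cleavage and translation are not measured by counts of nuclear RNA, so each value here is an amount of RNA.

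The targeted gene and the transgene were looked up first. *Sel1l* RNA stood at 97.1 and 90.0 CPM (UMIs per 1000000 UMIs) in Sel1L fl/fl 1 and 2 and at 155 and 128 CPM in Sel1L SynCre 1 and 2, higher rather than lower with the Cre label. Reads at the 3′ end of an RNA do not show which exons it carries. Cre RNA had 236 and 222 UMIs in the Sel1L SynCre libraries and 0 in Sel1L fl/fl 2, but 411 UMIs in the library labelled Sel1L fl/fl 1, which goes against that label. Tests of members and of interactions are therefore also given without it. The control levels, the counts of list genes and the correlations over subtypes include it. Every direction is one between libraries as labelled, and the *Sel1L* alleles of the mice were not checked. *Ddx3y* (male) was high in replicate 1 and *Xist* (female) in replicate 2 of each group, so each group holds 1 mouse of each sex. After filtering, 33364 nuclei remained, with 66315119 to 101342728 UMIs and 6813 to 11139 nuclei in a library. Between 10 and 34 barcodes were shared by any 2 libraries. Clusters were named by marker genes, so each cell type name stands for nuclei with the markers of that type, and 18 types with at least 20 nuclei in every library were tested: 13 neuronal subtypes and 5 other types. Excitatory cortical subtypes carry their layer (L) and projection class, which is intratelencephalic (IT), near-projecting (NP) or corticothalamic (CT). DG stands for granule neurons of the dentate gyrus, OPC for oligodendrocyte precursor cells and VLMC for vascular and leptomeningeal cells. A cluster of 2136 nuclei led by *Siglech* is kept under that name because its shallow depth, a median of 1835.5 UMIs, did not allow a type to be named.

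UMIs of each type were summed per library, and Sel1L SynCre was compared with Sel1L fl/fl by edgeR's quasi-likelihood test, with Benjamini-Hochberg adjustment over all genes tested in a type and a threshold of 0.05. Of 123 tests of a member in a cell type, 20 found higher RNA in the Sel1L SynCre libraries, 0 found lower RNA and 103 did not pass. At an unadjusted p under 0.05 the counts were 47 higher and 0 lower, where 6.44% (VLMCs) to 21.4% (*Sst*) of all genes tested in a type passed in either direction, and DESeq2 gave 21 higher and 0 lower. *Ddit3* was higher in 9 of 17 types, *Xbp1* in 6 of 18, *Eif2ak3* and *Atf6* in 2 of 18 each and *Atf4* in 1 of 17, while *Ern1* and *Atf6b* passed in none of 18 and 17. In its own neuronal clusters the study had reported *Eif2ak3*, *Xbp1* and *Ddit3* as elevated, and *Ern1*, *Atf6* and *Atf4* as unchanged. The *Atf6* and *Atf4* calls given here differ from that report. *Sst* interneurons had 5 of 7 members higher, where 4.61% of all genes tested were higher and 3.72% lower. In the same way, *Pvalb* interneurons had 3 of 7 (2.13% of all genes higher and 1.81% lower), DG neurons 3 of 7 (1.93% and 1.69%), L4/5 IT neurons 2 of 7 (1.27% and 0.64%), OPCs 2 of 7 (1.83% and 0.923%) and oligodendrocytes 2 of 7 (0.828% and 0.297%). *Ddit3* alone was higher in *Lamp5* interneurons (0.755% and 0.604% of all genes), L5/6 IT neurons (0.531% and 0.2%) and L6 CT neurons (0.303% and 0.113%). No member passed in L2/3 IT (0.203% and 0.105%), L5/6 NP (0.171% and 0.103%), L6b (0.109% and 0.0979%), CA1 (0.00759% and 0%), CA3 (0.041% and 0%) or *Vip* neurons (0.00874% and 0.0175%). Nor did any in astrocytes (0.512% and 0.123%), the *Siglech*-led cluster (0.0191% and 0.0191%) or VLMCs (0.0642% and 0.0214%). Both Sel1L SynCre libraries lay above both Sel1L fl/fl libraries in 69 of the 123 tests and below them in 7, where 18.1% to 26.2% of all genes lay wholly above, depending on the type. Without the library labelled Sel1L fl/fl 1, 24 tests passed as higher. The share of all genes passing in that fit was not counted, here or where it is given for single members or interactions below. The rise from 20 is therefore not read as a result about the members. Summed levels of some marker lists moved too, and their part in these results was not tested. The 8 endothelial markers were higher without overlap in 9 of 18 types, by 2.33-fold in *Sst* (17.8 and 19.1 against 43.7 and 42.2 CPM), 2.19-fold in *Pvalb* and 2.17-fold in *Lamp5* neurons, and the 8 neuron markers were higher in these 3 subtypes by 1.19-, 1.21- and 1.15-fold. The 8 oligodendrocyte markers were lower without overlap in 11 types and the 8 OPC markers in 9.

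**Figure D1:**
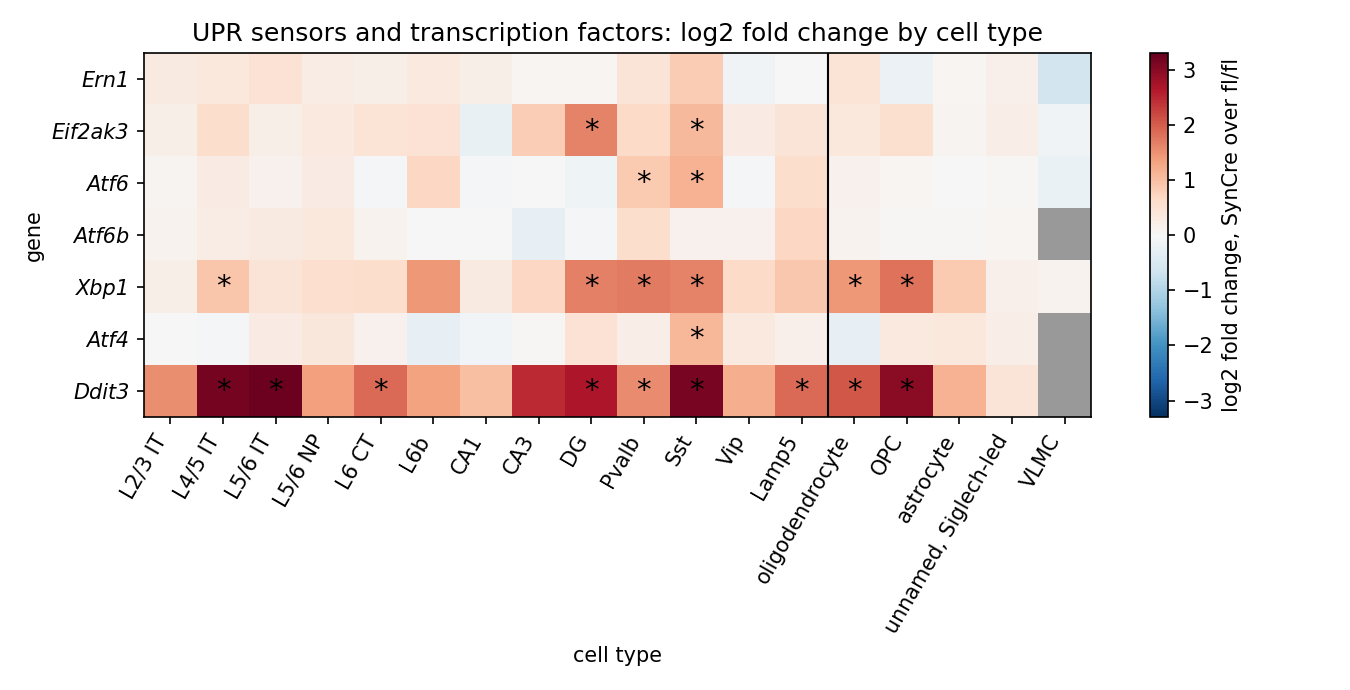
Log2 fold change of each member (rows) in each of the 18 cell types (columns), Sel1L SynCre over Sel1L fl/fl, with n = 2 libraries per group. Red is higher and blue is lower in Sel1L SynCre, grey marks members not tested in VLMCs, an asterisk marks an adjusted p under 0.05 and the vertical line separates neurons from other types. The 20 asterisks fall on Ddit3 (9), Xbp1 (6), Eif2ak3 (2), Atf6 (2) and Atf4 (1), and Sst neurons hold 5 of them.

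Among the sensors, the kinase gene *Eif2ak3* (chr6:70844515-70905245, plus strand, GRCm38) was higher in DG and *Sst* neurons. In DG neurons its TMM-scaled level was 15.3 and 16.8 CPM in Sel1L fl/fl 1 and 2 and 53.3 and 45.5 CPM in Sel1L SynCre 1 and 2. Both Sel1L SynCre libraries stood well above both controls, a 3.10-fold difference (log2 fold change 1.63, SE 0.17, adjusted p = 7.65e-05). In *Sst* neurons the levels were 39.5 and 26.9 CPM against 71.8 and 69.9 CPM, again without overlap (log2 fold change 1.06, SE 0.19, adjusted p = 0.00241). *Pvalb* neurons, at 43.9 and 42.4 against 73.9 and 60.9 CPM, and L4/5 IT neurons, at 25.5 and 24.5 against 40.2 and 35.4 CPM, also had groups that did not overlap but missed the threshold (adjusted p = 0.0524 and 0.0578), and passed it under 5 and 4 of 11 alternatives. Of the 13 neuronal subtypes, 10 had both Sel1L SynCre libraries above both controls, where 18.1% (*Vip*) to 26.2% (*Sst*) of all genes did. CA1 neurons were the 1 subtype with both below, at 21.6 and 18.2 against 16.8 and 17.2 CPM (log2 fold change -0.24, SE 0.19, adjusted p = 0.778). Outside neurons, OPCs had 54.4 and 42.7 against 71.4 and 69.5 CPM (log2 fold change 0.53, SE 0.21, adjusted p = 0.248). Without the library labelled Sel1L fl/fl 1, *Eif2ak3* passed in 4 types, with log2 fold changes of 0.62 in L4/5 IT, 0.70 in L6 CT, 1.56 in DG and 1.39 in *Sst* neurons.

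*Atf6* (chr1:170704674-170867771, minus strand), the membrane-held transcription factor, was higher in *Sst* and *Pvalb* interneurons. Its levels in *Sst* neurons were 71.8 and 79.2 CPM in Sel1L fl/fl and 202 and 132 CPM in Sel1L SynCre (log2 fold change 1.15, SE 0.18, adjusted p = 0.000815). In *Pvalb* neurons they were 81.1 and 73.7 against 173 and 110 CPM (log2 fold change 0.86, SE 0.20, adjusted p = 0.0302). The groups did not overlap in either subtype, and Sel1L SynCre 1 was the higher of its pair in both. The *Pvalb* call was not stable: without Sel1L fl/fl 1, Sel1L fl/fl 2 or Sel1L SynCre 1 it no longer passed, without Sel1L SynCre 2 it did, and the log2 fold change without 1 library ran from 0.50 to 1.15. L6b neurons, at 82.5 and 86.5 against 144 and 128 CPM, and *Lamp5* neurons, at 88.7 and 77.6 against 139 and 110 CPM, showed groups that did not overlap without passing (adjusted p = 0.140 and 0.186). DG neurons, which had the highest *Atf6* level of any type, held 223 and 197 against 200 and 183 CPM (log2 fold change -0.13, 95% interval -0.36 to 0.09). The excitatory subtypes L2/3 IT, L6 CT, CA1 and CA3 had log2 fold changes between -0.07 and 0.08.

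*Ern1* (chr11:106394650-106487852, minus strand), which encodes IRE1α, passed in none of 18 types with edgeR, and at an unadjusted p under 0.05 it was higher in 4 types and lower in 0. DESeq2 also called 0. Its closest approach was in *Sst* neurons, where the levels were 22.8 and 14.2 against 37.5 and 30.5 CPM (log2 fold change 0.84, SE 0.25, adjusted p = 0.0510). The groups did not overlap there, and the threshold was passed in 6 of 11 alternatives, among them the fit without the library labelled Sel1L fl/fl 1 (log2 fold change 1.25, adjusted p = 0.0142). L5/6 IT neurons, at 37.1 and 27.3 against 47.6 and 42.3 CPM (adjusted p = 0.343), passed without that library alone (log2 fold change 0.73, adjusted p = 0.0201). In DG neurons, where *Eif2ak3* was higher by 3.10-fold, *Ern1* stood at 26.6 and 23.9 against 26.8 and 26.4 CPM (log2 fold change 0.07, 95% interval -0.29 to 0.43).

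*Atf6b* (chr17:34647146-34655074, plus strand), which encodes the ATF6 relative ATF6B, passed in none of 17 types with edgeR or with DESeq2, and in 0 at an unadjusted p under 0.05. Its log2 fold changes ran from -0.26 in CA3 to 0.69 in *Lamp5* neurons. The *Lamp5* levels were 9.69 and 8.23 against 14.4 and 15.1 CPM, with an SE of 0.43. *Pvalb* neurons had 11.3 and 17.6 against 22.3 and 19.8 CPM (log2 fold change 0.58, SE 0.27, adjusted p = 0.306). Its counts were low, and the interval in *Sst* neurons, -0.53 to 0.80 on the log2 scale, left room for a change of the size *Eif2ak3* showed in *Pvalb* neurons.

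**Figure D2:**
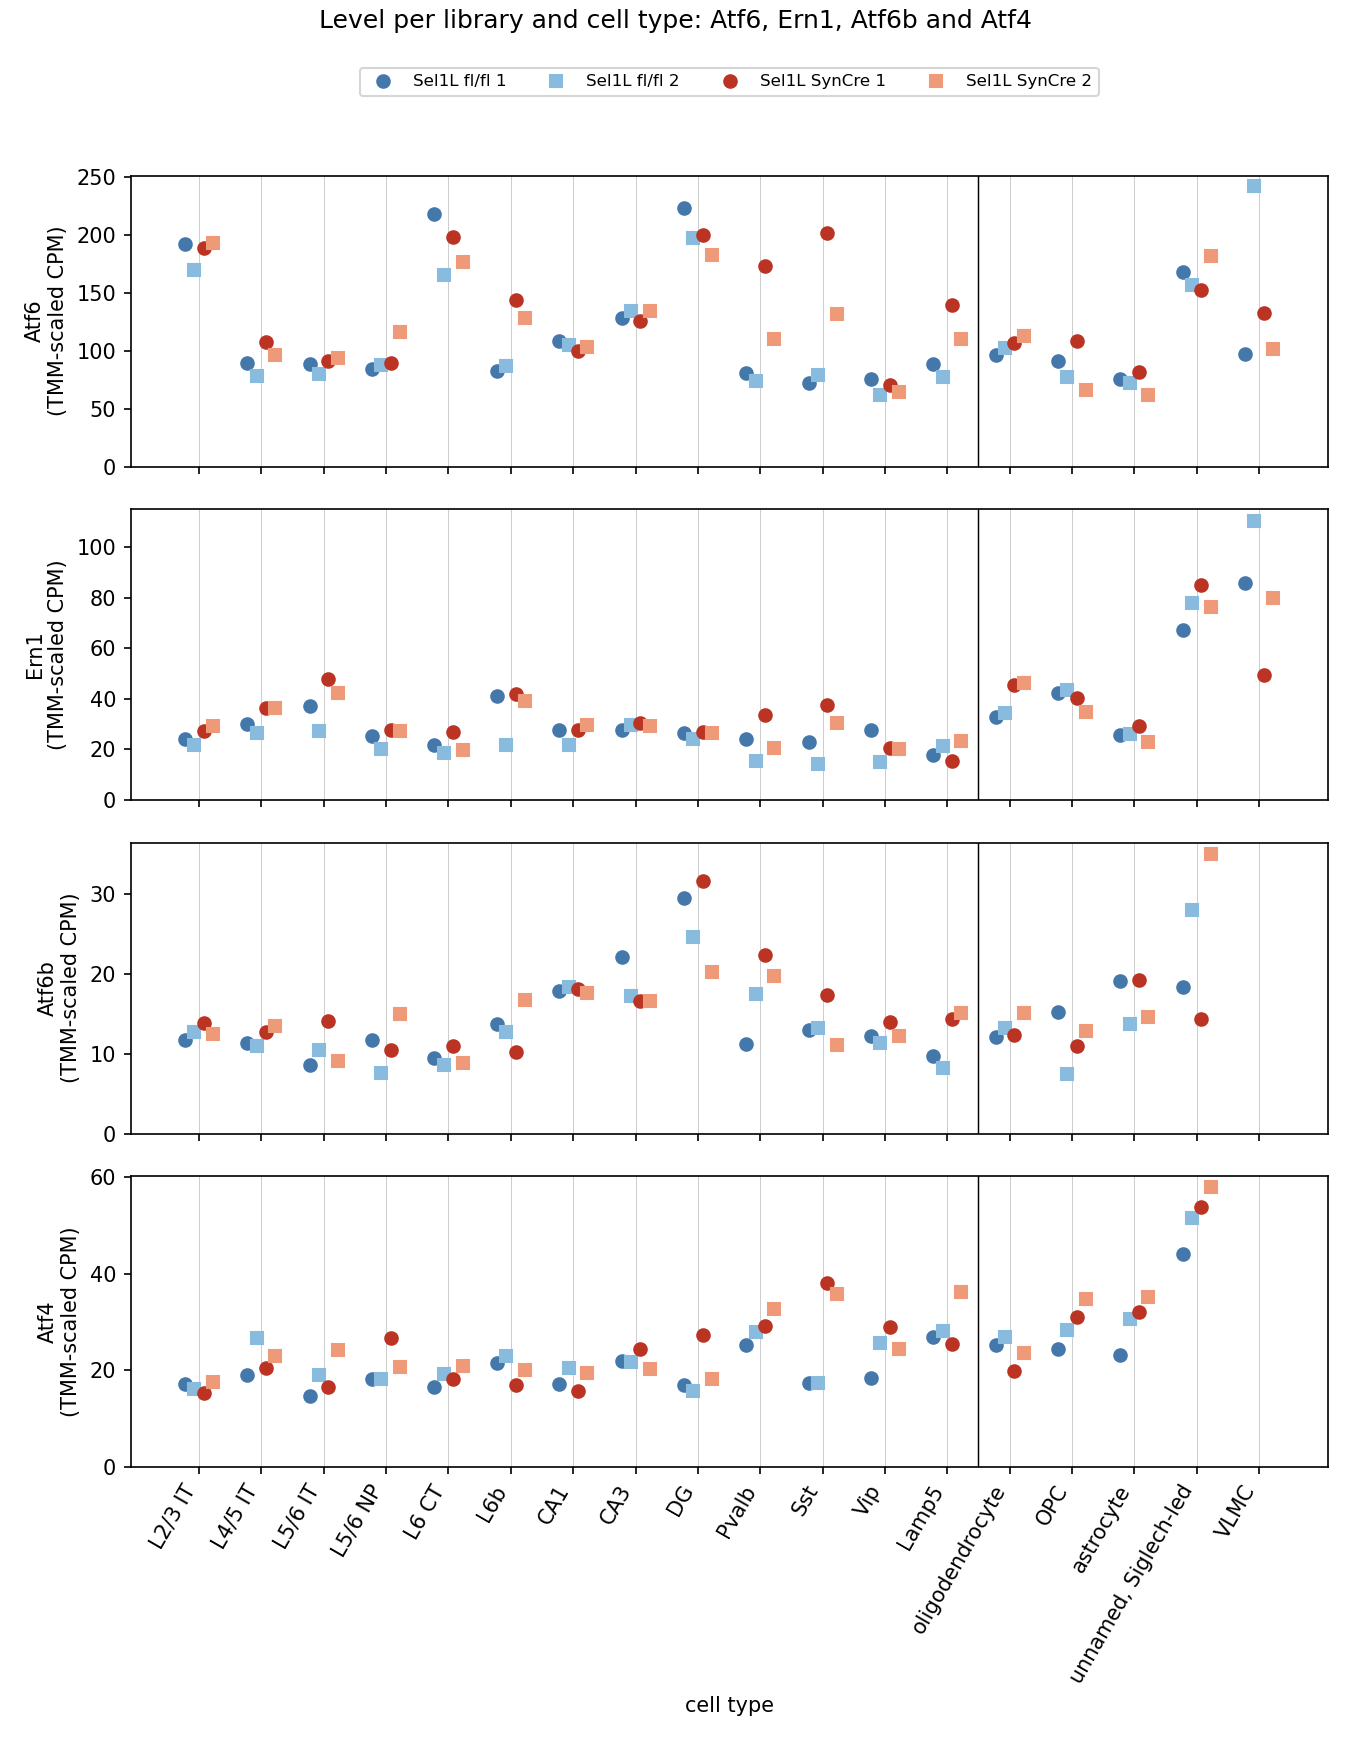
TMM-scaled CPM of Atf6, Ern1, Atf6b and Atf4 (vertical axes, each from 0) in each cell type; each point is 1 library, blue for Sel1L fl/fl and red for Sel1L SynCre, circles for replicate 1 and squares for replicate 2. Atf6 separates most in Sst and Pvalb neurons, where Sel1L SynCre 1 reached 202 and 173 CPM, and Atf6b points of the 2 groups are mixed in most types.

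Of the transcription factors, *Xbp1* (chr11:5520659-5525893, plus strand) was higher in 4 neuronal subtypes and in both types of the oligodendrocyte lineage. IRE1α cuts a short stretch out of its mRNA, and that stretch is shown because its position bears on what the counts can tell. In a GENCODE transcript of 2129 bases (coding bases 337 to 1137) it spans bases 815 to 840, found as the 26 bases between 2 copies of the cut motif CNGCAGC. The stretch is written 5′ to 3′ in lower case, with the 3 bases before it and the 4 after it, which belong to the cut motif, in capitals.
Xbp1 removed stretch with its flanks: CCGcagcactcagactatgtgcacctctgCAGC
The stretch ends 1289 bases before the 3′ end, so UMIs read at the 3′ end count spliced and unspliced *Xbp1* alike.

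In DG neurons *Xbp1* stood at 19.0 and 17 CPM in Sel1L fl/fl and at 61.9 and 52.8 CPM in Sel1L SynCre, a 3.17-fold difference (log2 fold change 1.66, SE 0.16, adjusted p = 4.69e-05). In *Pvalb* neurons it was 19.6 and 11.6 against 61.5 and 43.6 CPM (log2 fold change 1.71, SE 0.26, adjusted p = 0.00344). *Sst* neurons had 23.6 and 16.9 against 76.5 and 52.3 CPM (log2 fold change 1.65, SE 0.23, adjusted p = 0.000311). These 3 subtypes had differences of similar size, 3.13- to 3.26-fold, and their groups did not overlap. In L4/5 IT neurons the difference was smaller, 20.4 and 19.0 against 39.7 and 34.9 CPM (log2 fold change 0.92, SE 0.14, adjusted p = 0.0101). L6b neurons, at 15.7 and 16.1 against 47.6 and 39.0 CPM (log2 fold change 1.44, SE 0.32, adjusted p = 0.0751), and *Lamp5* neurons, at 24.6 and 30.6 against 49.8 and 50.4 CPM (adjusted p = 0.123), did not pass although their groups did not overlap. The log2 fold change was above 0 in all 18 types, and in 16 of them both Sel1L SynCre libraries lay above both controls. Of all genes, 18.1% (*Vip*) to 26.2% (*Sst*) lay wholly above in a type. Without the library labelled Sel1L fl/fl 1, *Xbp1* again passed in 6 types.

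*Ddit3* (chr10:127290774-127296288, plus strand), which encodes CHOP, had the widest change. Its largest fold changes were in L5/6 IT, L4/5 IT and *Sst* neurons. L5/6 IT neurons went from 1.38 and 1.99 CPM (7 UMIs in each library) to 16.5 and 14.6 CPM (64 and 53 UMIs), a 9.35-fold difference (log2 fold change 3.22, SE 0.38, adjusted p = 0.000509). L4/5 IT neurons had 2.77 and 2.26 against 24.3 and 21.4 CPM (log2 fold change 3.16, SE 0.23, adjusted p = 0.000269). *Sst* neurons had 7.97 and 10.0 against 88.6 and 68.1 CPM (log2 fold change 3.14, SE 0.23, adjusted p = 9.08e-07). In these 3 subtypes the lower Sel1L SynCre library was several times the higher control. DG neurons had 5.05 and 4.37 against 40.4 and 20.6 CPM (log2 fold change 2.68, SE 0.31, adjusted p = 0.000255), and the 2 Sel1L SynCre libraries lay far apart from each other.

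The other neuronal calls had smaller fold changes. *Pvalb* neurons had 23.2 and 21.9 against 78.6 and 55.7 CPM (log2 fold change 1.57, SE 0.20, adjusted p = 0.00138). *Lamp5* neurons had 16.4 and 16.5 against 59.8 and 60.4 CPM (log2 fold change 1.86, SE 0.27, adjusted p = 0.00289). L6 CT neurons had 5.41 and 2.67 against 15.8 and 14.9 CPM (log2 fold change 1.88, SE 0.29, adjusted p = 0.0186). The groups did not overlap in any of the 13 neuronal subtypes, where 18.1% to 26.2% of all genes lay wholly above per subtype. An unadjusted p under 0.05 was found in 13 (6.73% to 21.4% of all genes per subtype), and the adjusted threshold was passed in 7. The 6 that missed it were L2/3 IT, L5/6 NP, L6b, CA1, CA3 and *Vip* neurons. L2/3 IT neurons came closest, at 3.76 and 2.86 against 10.6 and 8.84 CPM (log2 fold change 1.54, SE 0.26, adjusted p = 0.0530), and passed in 8 of 11 alternatives. CA3 neurons had 4.31 and 2.22 against 22.1 and 15.9 CPM, a log2 fold change of 2.47 with an adjusted p of 0.111. CA1 neurons had 3.38 and 2.50 against 8.40 and 3.82 CPM (log2 fold change 1.00, SE 0.45, adjusted p = 0.605), so Sel1L SynCre 2 lay close to the controls. Without the library labelled Sel1L fl/fl 1, *Ddit3* passed in 10 types, L2/3 IT included.

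The last 68 bases of *Ddit3* overlap *Mars* on the other strand, and its first 15 bases overlap *Gm4189* on the other strand. Whether the authors counted by strand is not given in the sources used here. The promoter of *Ddit3* is shown because its RNA changed in more types than that of any other member. The RefSeq promoter table (GRCm38.p6) holds 6 members, and the 250 bases upstream of each were searched on both strands for 4 short motifs, a set chosen after the sequences were seen. CCAAT and CCACG are the outer boxes of the ER stress element, TGACGTG is the core of the UPR element and TGATGNAA is the amino acid response element that ATF4 binds. They are found in 33.8%, 28.3%, 1.65% and 3.45% of 32851 promoters, so the boxes are common. None of the 6 held TGACGTG or TGATGNAA. CCAAT was held by *Eif2ak3*, *Atf6b*, *Atf4* and *Ddit3*, CCACG by *Ern1* and *Atf4*, and neither by *Xbp1*. *Ddit3* held a single CCAAT on the minus strand, 77 to 73 bases upstream of the start, in capitals in the 250 bases at chr10:127290543-127290792 (plus strand).
Ddit3 promoter: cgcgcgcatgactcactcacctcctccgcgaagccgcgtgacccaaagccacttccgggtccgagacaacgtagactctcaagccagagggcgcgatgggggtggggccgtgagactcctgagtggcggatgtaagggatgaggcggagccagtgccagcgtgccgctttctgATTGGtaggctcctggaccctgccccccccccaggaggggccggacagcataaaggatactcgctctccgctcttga
A match of letters is not evidence that a factor binds there, and the absence of a match says nothing of the factor.

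**Figure D3:**
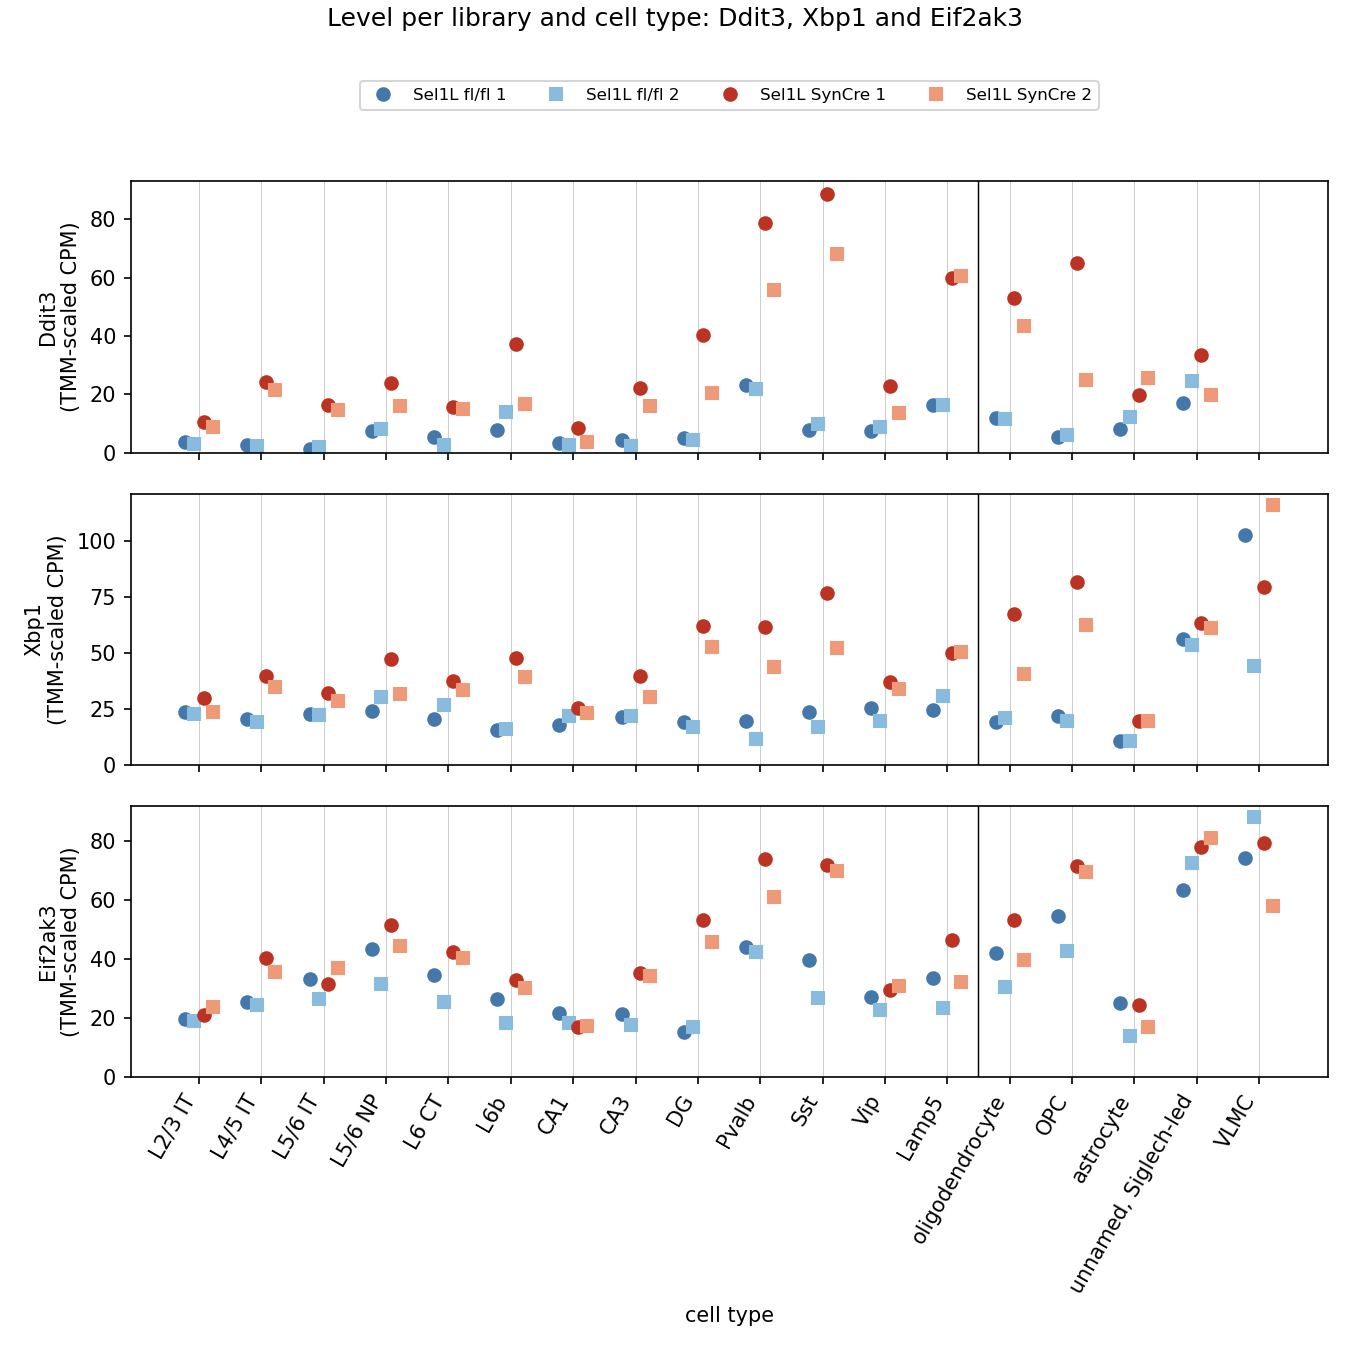
TMM-scaled CPM of Ddit3, Xbp1 and Eif2ak3 (vertical axes, each from 0) in each cell type; each point is 1 library, blue for Sel1L fl/fl and red for Sel1L SynCre, circles for replicate 1 and squares for replicate 2. Ddit3 is separated in all 13 neuronal subtypes, from 88.6 and 68.1 CPM against 7.97 and 10.0 in Sst neurons down to 8.40 and 3.82 against 3.38 and 2.50 in CA1 neurons, and the Eif2ak3 points of CA1 neurons lie together.

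*Atf4* (chr15:80255184-80257541, plus strand), whose protein is controlled mainly by translation, passed in *Sst* neurons, at 17.4 and 17.4 against 38.0 and 35.8 CPM (log2 fold change 1.08, SE 0.22, adjusted p = 0.00503). With DESeq2 that call was lost (adjusted p = 0.0748). In the other 16 types tested it did not pass, with log2 fold changes from -0.26 in L6b neurons to 0.48 in DG neurons. DG neurons, at 16.9 and 15.7 against 27.3 and 18.3 CPM, had an adjusted p of 0.268. L4/5 IT neurons, whose *Ddit3* was 8.91-fold higher, had *Atf4* at 19.0 and 26.8 against 20.5 and 23.0 CPM (log2 fold change -0.06, 95% interval -0.47 to 0.35). *Atf4* RNA and *Ddit3* RNA thus differed in how many types passed, 1 and 9 of 17.

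Glia were included because Cre is driven by a neuronal promoter. In OPCs, *Ddit3* stood at 5.50 and 5.99 CPM in Sel1L fl/fl and at 65.0 and 24.8 CPM in Sel1L SynCre (log2 fold change 2.97, SE 0.43, adjusted p = 8.49e-05), on 9, 8, 71 and 25 UMIs. *Xbp1* in OPCs was 22.0 and 19.5 against 81.5 and 62.5 CPM (log2 fold change 1.79, SE 0.25, adjusted p = 4.78e-05). In both cases the groups did not overlap, and without 1 library the log2 fold change ran from 2.09 to 3.48 for *Ddit3* and from 1.57 to 1.96 for *Xbp1*, past the threshold each time. In oligodendrocytes *Ddit3* was 11.8 and 11.4 against 53.1 and 43.3 CPM (log2 fold change 2.05, SE 0.23, adjusted p = 0.00424). *Xbp1* there was 18.9 and 21.1 against 67.3 and 40.5 CPM (log2 fold change 1.44, SE 0.26, adjusted p = 0.0259), and without Sel1L SynCre 1 it no longer passed (log2 fold change 1.01, adjusted p = 0.0895). The summed level of 8 neuron markers, a measure of neuronal RNA in these nuclei, was 1326 and 994 CPM in Sel1L fl/fl and 1114 and 1200 CPM in Sel1L SynCre oligodendrocytes, so the groups overlapped. In OPCs it was 1944 and 1795 against 1637 and 1565 CPM, lower in Sel1L SynCre, and 0 of the 8 neuron markers were at 0 in either type. The summed level of 8 OPC markers in OPCs was 11969 and 11724 against 10441 and 9283 CPM, and that of 8 astrocyte markers 681 and 792 against 797 and 954 CPM, neither with overlap. In oligodendrocytes the 8 oligodendrocyte markers were 16490 and 16276 against 15111 and 13203 CPM, and the 8 astrocyte markers 193 and 204 against 228 and 232 CPM, also without overlap. The part of these differences in the results was not tested. Oligodendrocyte nuclei numbered 1852 and 1173 in Sel1L fl/fl and 355 and 365 in Sel1L SynCre, and the part of that difference in these results was not tested.

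The other non-neuronal types did not pass. Astrocytes had *Ddit3* at 8.32 and 12.2 against 19.8 and 25.5 CPM (log2 fold change 1.15, SE 0.41, adjusted p = 0.275) and *Xbp1* at 10.8 and 10.7 against 19.8 and 19.4 CPM (adjusted p = 0.427). In the *Siglech*-led cluster the log2 fold changes of the 7 members lay between 0.03 and 0.42. VLMCs, with as few as 21 nuclei in a library, gave intervals too wide to read, such as -0.96 to 1.18 for *Xbp1*, and *Atf6b*, *Atf4* and *Ddit3* were not tested there. Types with fewer than 20 nuclei in a library, such as choroid plexus and endothelial nuclei, were not tested.

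Whether the difference between genotypes itself differed between neuronal subtypes was tested against CA1 neurons, the reference because the study's staining led its authors to treat CA1 as a region that keeps SEL1L. Of 84 such tests (7 members in 12 subtypes), 13 passed with a greater difference than in CA1 and 0 with a smaller one, and 29 had an unadjusted p under 0.05, where 5.80% (*Vip*) to 14.4% (*Sst*) of all genes did in a subtype. *Sst* neurons held 5 of the 13 (1.98% of all genes were greater there), *Pvalb* neurons 3 (1.31%), DG neurons 3 (0.94%) and L4/5 IT neurons 2 (0.373%). The log2 fold change of *Eif2ak3* was greater than in CA1 by 1.85 (SE 0.21, adjusted p = 7.94e-08) in DG, by 1.29 in *Sst*, by 0.86 in *Pvalb* and by 0.81 in L4/5 IT neurons. *Xbp1* was greater by 1.32 in DG, 1.35 in *Pvalb* and 1.30 in *Sst* neurons. *Ddit3* was greater by 2.17 in L4/5 IT, 2.15 in *Sst* and 1.66 in DG neurons, while *Atf6* was greater by 1.21 in *Sst* and 0.90 in *Pvalb* and *Atf4* by 1.14 in *Sst* neurons. The differences of *Eif2ak3* in DG, *Xbp1* in DG and *Atf6* in *Sst* neurons passed in all 6 alternatives, and that of *Eif2ak3* in L4/5 IT neurons in none. *Ddit3* in DG neurons passed in 1 of 6, and *Eif2ak3* in *Pvalb* and *Atf4* in *Sst* neurons in 2 of 6 each. *Ddit3* passed in 4 of 6 in L4/5 IT and in 5 of 6 in *Sst* neurons. Its differences in L4/5 IT, *Sst* and DG neurons all failed to pass without the library labelled Sel1L fl/fl 1. With *Vip* neurons as the reference *Eif2ak3* passed in DG neurons alone. Without the library labelled Sel1L fl/fl 1, 6 of the 84 passed.

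Cre RNA itself was uneven between types. Its mean level in the Sel1L SynCre libraries was 28.0 CPM in *Pvalb*, 15.8 in *Sst*, 9.65 in *Lamp5*, 6.33 in DG and 6.26 CPM in CA3 neurons, and 14.4 CPM in OPCs. It was 3.85 CPM in L4/5 IT, 0.910 in L2/3 IT and 0.254 CPM in CA1 neurons. In oligodendrocytes 0 Cre UMIs were counted in both Sel1L SynCre libraries, which allows up to 2.76 and 2.91 CPM (3 counts, counting error only). Across the 13 neuronal subtypes the fold change of *Xbp1* went with mean Cre CPM (Pearson r = 0.71, Spearman rho = 0.87), and so did that of *Atf6* by r but less by rho (r = 0.70, rho = 0.48) and that of *Eif2ak3* by rho but less by r (r = 0.41, rho = 0.76). *Ddit3* had an r of 0.15 and a rho of 0.43, and *Ern1*, *Atf6b* and *Atf4* had r between 0.38 and 0.44 and rho between 0.13 and 0.29. These are descriptions over subtypes that come from the same 4 libraries. The library labelled Sel1L fl/fl 1 held Cre at levels like those of the Sel1L SynCre libraries, 29.7 CPM against 29.7 and 26.3 CPM in *Pvalb* and 20.9 against 17 and 14.5 CPM in *Sst* neurons. Its *Ddit3* level was close to that of Sel1L fl/fl 2, 7.97 against 10.0 CPM in *Sst* and 23.2 against 21.9 CPM in *Pvalb* neurons. In *Sst* neurons it was above Sel1L fl/fl 2 for *Xbp1* (23.6 against 16.9 CPM), *Eif2ak3* (39.5 against 26.9) and *Ern1* (22.8 against 14.2). There *Atf6*, at 71.8 against 79.2 CPM, lay the other way, and *Atf4*, at 17.4 and 17.4 CPM, was alike. The part of Cre in the levels of that library was not tested.

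**Figure D4:**
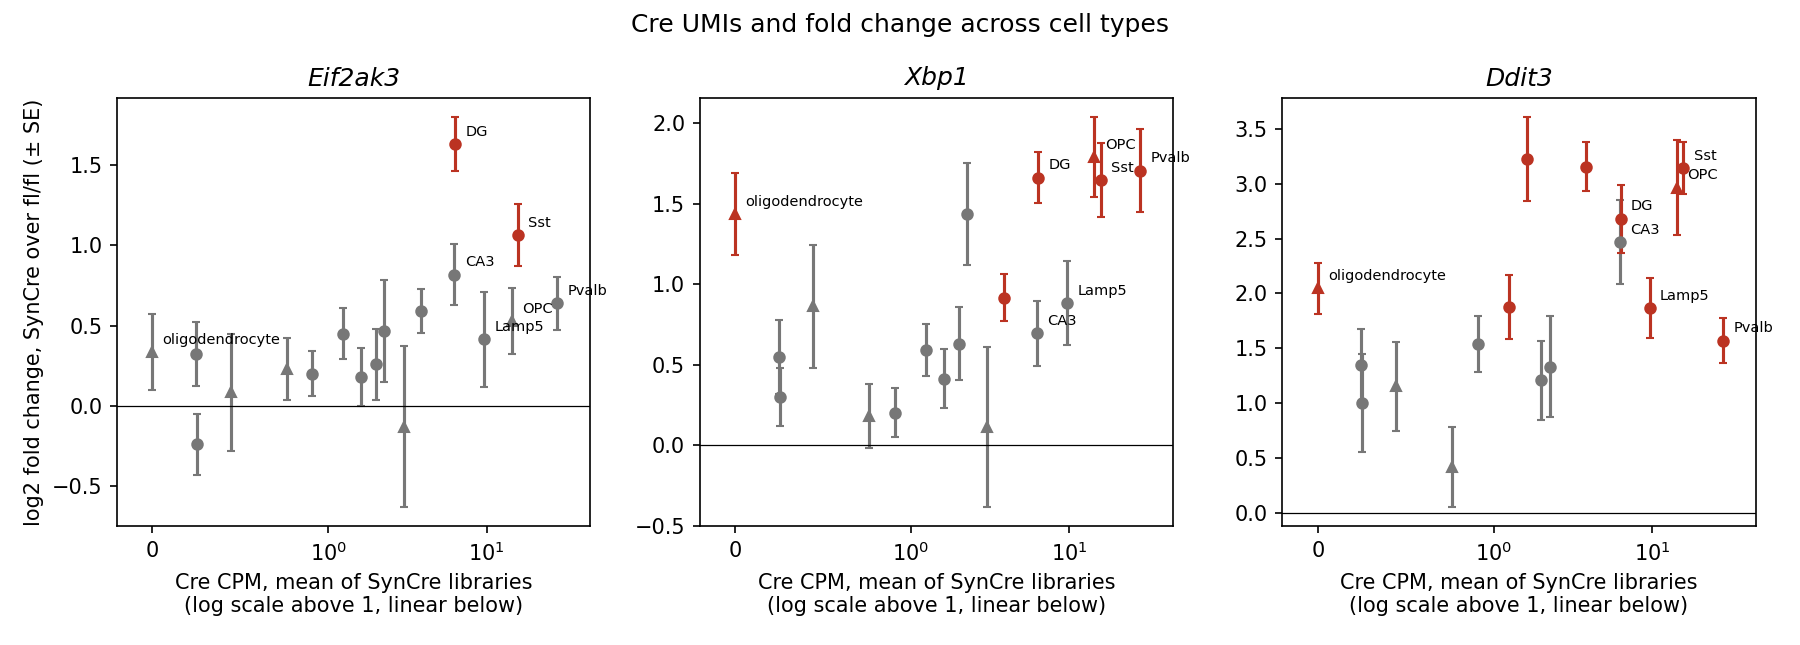
Log2 fold change (± SE) of Eif2ak3, Xbp1 and Ddit3, Sel1L SynCre over Sel1L fl/fl, against the mean Cre CPM of the 2 Sel1L SynCre libraries (log scale above 1, linear below). Each point is a cell type, circles for neurons and triangles for other types, red where the adjusted p was under 0.05; Pvalb neurons lie farthest right at 28.0 CPM, and oligodendrocytes lie at 0 CPM with Ddit3 at 2.05.

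The order of cell types in the control libraries was described on CPM of the total UMIs of a type. *Ddit3* was spread most, from 1.66 ± 0.504 CPM (SD, n = 2) in L5/6 IT neurons through 2.46 ± 0.274 in L4/5 IT, 2.86 ± 0.540 in CA1 and 3.15 ± 1.38 in CA3 neurons to 15.4 ± 0.666 in *Lamp5* and 21.8 ± 0.371 CPM in *Pvalb* neurons. VLMCs stood highest, at 51.3 ± 21.2 CPM on 14 and 2 UMIs. L5/6 IT, the lowest, was below its neighbour L4/5 IT without overlap, while CA1, CA3, L2/3 IT and L6 CT overlapped in sequence. *Atf6* was highest in DG (205 ± 15.5 CPM), L6 CT (186 ± 29.6) and L2/3 IT neurons (180 ± 9.38), neighbours that overlapped. It was 127 ± 5.60 in CA3 and 104 ± 0.212 CPM in CA1 neurons, which did not overlap, and from 67.5 to 83.5 CPM in the remaining 8 neuronal subtypes other than these 5, of which *Vip* was lowest.

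*Eif2ak3* was lowest in DG neurons (15.7 ± 1.23 CPM), just below CA3 (18.8 ± 2.09) without overlap. *Pvalb* neurons had the highest neuronal level of this sensor gene (41.8 ± 0.0387 CPM), and VLMCs (67.2 ± 7.91), the *Siglech*-led cluster (65.5 ± 6.89) and OPCs (47.6 ± 6.88) stood above them. *Ern1* was likewise highest in VLMCs (81.0 ± 14.1 CPM) and the *Siglech*-led cluster (70.1 ± 7.86), with OPCs next (42.1 ± 1.99). Neurons held 17.7 to 31.4 CPM of *Ern1*, with *Sst* lowest and most neighbours overlapping. The VLMCs of Sel1L fl/fl 2 were 21 nuclei with 54983 UMIs of all genes. For both *Eif2ak3* and *Ern1*, VLMCs overlapped the *Siglech*-led cluster. *Xbp1* in neurons lay between 15 CPM in *Pvalb* and 26.4 CPM in L5/6 NP neurons, with astrocytes below at 10.5 ± 0.164 and the *Siglech*-led cluster above at 53.0 ± 1.56 CPM. *Atf4* was highest in the *Siglech*-led cluster (46.2 ± 5.49 CPM) and lowest in DG neurons (15.9 ± 0.684). *Atf6b* ran from 8.39 ± 0.628 CPM in *Lamp5* to 26.4 ± 3.07 CPM in DG neurons. Of 119 pairs of neighbours in these orders, 92 overlapped between libraries, so most single steps cannot be told from the spread.

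Other genes of the pathway were taken from 5 lists, which were chosen with earlier results of these data known. The study had already reported genes of the ATF6 list, such as *Hspa5*, *Herpud1* and *Derl3*, as raised in these nuclei, most in DG, *Pvalb* and *Sst* neurons. The counts below are therefore descriptions and not independent support. The filter on low counts can also admit a gene through the Sel1L SynCre libraries alone, which can raise counts out of the genes tested. *Derl3* had 0 UMIs in both Sel1L fl/fl libraries in *Sst* and *Lamp5* neurons. Its Sel1L SynCre libraries held 195 and 125 UMIs in *Sst* and 57 and 33 in *Lamp5* neurons. Of 14 genes listed as ATF6 targets, 14 of 14 were higher in DG, *Pvalb* and *Sst* neurons and in OPCs, with median log2 fold changes of 2.16, 2.17, 2.46 and 1.86, where the median over all genes was about 0 (0.01 in each of these types). Of this list 12 of 14 were higher in *Lamp5*, 11 of 14 in L4/5 IT, 5 of 14 in L5/6 IT and 4 of 14 in CA3 neurons. In oligodendrocytes 7 of 13 were higher, and 0 of 13 in CA1, 0 of 11 in *Vip* and 0 of 14 in L2/3 IT neurons. The share of all genes higher was 4.61% in *Sst*, 2.13% in *Pvalb* and 1.93% in DG neurons and 1.83% in OPCs. It was 1.27% in L4/5 IT, 0.755% in *Lamp5*, 0.531% in L5/6 IT and 0.041% in CA3 neurons and 0.828% in oligodendrocytes. *Hspa5*, the chaperone BiP, and *Dnajc3*, a co-chaperone that also inhibits PERK, were each higher in 12 of 18 types, by log2 fold changes of 0.99 to 3.16 and 0.75 to 2.91. *Herpud1*, an ERAD component, was higher in 11. In L5/6 NP and L6b neurons, where no member passed, 4 of 14 and 3 of 11 genes of this list were higher. The other genes of the list did not pass there, and 0.171% and 0.109% of all genes were higher.

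Of 18 genes listed as XBP1s targets, 16 were higher in *Sst*, 13 in DG, 13 in *Pvalb* and 4 in *Lamp5* neurons, 1 in L4/5 IT neurons and 1 in OPCs, with medians of 1.16, 0.84, 0.97, 0.70, 0.30 and 0.52. *Sec24d*, a coat protein of ER export, was higher in 5 of 18 types, and *Dnajb9*, an ER co-chaperone, and *Fkbp14*, an ER prolyl isomerase, in 4 each. In L4/5 IT neurons, OPCs and oligodendrocytes, *Xbp1* was higher while 1, 1 and 0 of 18 genes listed as targets of its spliced form passed. The medians of the list there were 0.30, 0.52 and 0.20, beside 0.004, 0.005 and 0.003 for all genes. A gene that did not pass is not shown to be unchanged. Of 31 genes listed as ATF4 or CHOP targets, 24 of 29 tested were higher in *Sst* neurons and 18 of 23 in OPCs. The counts were 12 of 27 in L4/5 IT, 12 of 24 in DG and 12 of 29 in *Pvalb* neurons. They were 7 of 19 in oligodendrocytes, 3 of 23 in *Lamp5* and 1 of 24 in L5/6 IT neurons. In this order of types, the medians were 1.67, 1.81, 1.07, 0.90, 1.34, 0.87, 0.92 and 0.51. Beside both lists, the shares of all genes higher in these types were 4.61%, 1.83%, 1.27%, 1.93%, 2.13%, 0.828%, 0.755% and 0.531%. *Slc7a11*, the cystine transporter, was higher in 6 of 12 types, and *Phgdh*, the first enzyme of serine synthesis, in 5 of 12. *Atf5*, a transcription factor of the same family as *Atf4*, was higher in 5 of 15. Among regulators close to the sensors, *Dnajc3* was higher in 12 types, *Syvn1*, which encodes HRD1, in 2 and *Ppp1r15a*, an eIF2α phosphatase subunit, in 1. Among other stress-response transcription factors, *Creb3l2* was higher in 8 of 18, *Atf5* in 5 and *Cebpb* in 3 types. No gene of these 5 lists was lower in any of the 18 types with edgeR.

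The genes whose fold changes were most like those of each member over the 13 neuronal subtypes, out of 8402 genes tested in all of them, were found by Pearson's r. For *Eif2ak3* they were *Cars* (r = 0.943), *Slc7a1* and *Slc7a3*. For *Xbp1* they were *Ostc* (0.940), *Lman1* and *Calr*, and for *Atf4* they were *Glrx2* (0.959), *Eif1* and *Gm44899*. For *Ddit3* they were *Atg12* (0.804), *Pgk1* and *Mia3*, for *Atf6* they were *Agap1* (0.945), *Paqr3* and *Phf10*, for *Ern1* they were *Nup98* (0.878), *Cops2* and *Elp4*, and for *Atf6b* they were *Abcf3* (0.866), *Rnf166* and *Plekha3*. The subtypes share libraries and the best of 8402 values is high by choice, so these are descriptions. Between members, fold changes went together most for *Eif2ak3* and *Xbp1* (r = 0.758) and least for *Eif2ak3* and *Atf6b* (r = -0.212).

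*Derl3*, an ERAD gene, had 52 and 40 UMIs in the Sel1L fl/fl libraries and 1110 and 672 in the Sel1L SynCre libraries, and nuclei of the latter were split by whether they held a *Derl3* UMI. In 20 combinations of type and library, over 11 types, CPM of *Ddit3* was higher in nuclei with *Derl3* in 18, with a median ratio of 2.42 (range 0.834 to 6.22). The ratio was 5.51 and 6.22 in L2/3 IT, 2.85 and 3.67 in L4/5 IT and 3.61 and 3.23 in CA3 neurons. Nuclei with *Derl3* were few: in L2/3 IT neurons 27 and 22 nuclei held 18 and 18 *Ddit3* UMIs. In CA3 neurons 22 and 22 nuclei held 20 and 15. The *Ddit3* ratio was 1.00 and 1.60 in DG, 1.27 and 1.03 in *Sst* and 0.834 and 0.892 in *Pvalb* neurons. In these subtypes nuclei without a *Derl3* UMI also held *Ddit3*, at 40.7 and 18.4 CPM in DG neurons. The median ratio was 1.32 for *Xbp1*, 1.24 for *Eif2ak3*, 1.14 for *Atf6*, 1.13 for *Atf6b*, 1.08 for *Ern1* and 1.07 for *Atf4*, beside 0.857 for *Actb* and 1.06 for *Gapdh*. Single ratios spread widely, from 0.276 to 2.10 for *Xbp1* and from 0.565 to 1.68 for *Actb*. A nucleus without a *Derl3* UMI is not shown to lack the RNA, and no test was made of this split.

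**Figure D5:**
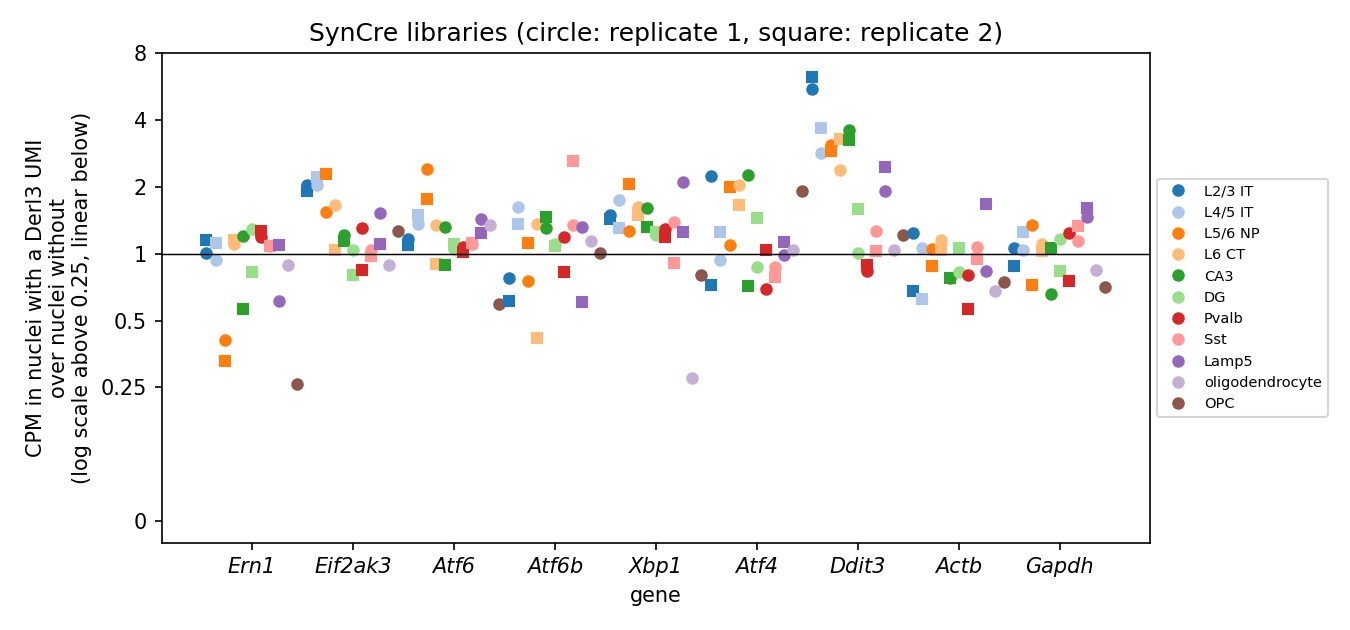
Ratio of CPM in Sel1L SynCre nuclei with a Derl3 UMI to CPM in nuclei without one (vertical axis, log scale above 0.25, linear below), for the 7 members and for Actb and Gapdh. Each point is a cell type in 1 library (circles for replicate 1, squares for replicate 2, colours for types); Ddit3 reached 6.22 in L2/3 IT neurons and was 0.834 and 0.892 in Pvalb neurons.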

How the data were processed

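Single nuclei from 4 mice were sequenced with the 10x Genomics 3′ v3 chemistry. The authors deposited raw UMI counts for 32286 features in every barcode called as a nucleus, made with Cell Ranger 6.1.0 on GRCm38 per the submitters' processing notes. Whether reads in introns were counted is not given in the sources used here. Depth was 66315119 to 101342728 UMIs per library after filtering, and intervals from counts cover counting error only.

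Nuclei were kept where they had over 600 genes and under 5% of UMIs from mitochondria. Scrublet scores (scanpy 1.11.5) were ranked and the highest left out at a rate set by the number of nuclei, 5.78% to 9.89%, which removed 418 to 1223 nuclei per library. Nuclei were integrated and clustered in Seurat 5.3.0 and named from marker lists, and 8293 nuclei stayed unnamed, 2136 of them in the tested *Siglech*-led cluster. UMIs were summed per type and library and compared with edgeR 4.0.16 (TMM, filterByExpr, two-sided quasi-likelihood F test, prior count 0.125, Benjamini-Hochberg over all genes tested in the type). The filter can keep a gene that is high in the libraries of a single group. The interaction fit had library as a block. Standard errors were back-calculated from each fold change and its F value, and 95% intervals from the same test. The tests were checked on simulated counts. With 2 mice per group an exact permutation test cannot give a p under 0.333, so none was used. Alternatives were DESeq2 1.42.0, total UMIs in place of TMM, no filter on low counts, a block for the replicate number, doublets kept, names without integration, thinning to the smallest library and each library left out. The members and lists were chosen with earlier results of these data known. Named list genes are the 3 of each list with the most types past the threshold, ties broken by the larger mean log2 fold change over the types tested, and like genes the 3 with the highest r. Gene positions are from GENCODE (GRCm38) and promoters from RefSeq, with an entry for 6 of 7 members. Analyses used R 4.3.3, Python 3.11.15, numpy 2.4.6, pandas 2.3.3 and scipy 1.17.1.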

Additional observations from a re-analysis of the deposited data

Results flagged for a closer look

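In 13 cases the difference between genotypes was greater in a neuronal subtype than in CA1 neurons by an interaction test (edgeR's quasi-likelihood test, adjusted over all genes). On the log2 scale the excess over CA1 was 0.81 for *Eif2ak3* and 2.17 for *Ddit3* in L4/5 IT neurons. In DG neurons it was 1.85 for *Eif2ak3*, 1.32 for *Xbp1* and 1.66 for *Ddit3*. In *Pvalb* neurons it was 0.86 for *Eif2ak3*, 0.90 for *Atf6* and 1.35 for *Xbp1*. In *Sst* neurons it was 1.29 for *Eif2ak3*, 1.21 for *Atf6*, 1.30 for *Xbp1*, 1.14 for *Atf4* and 2.15 for *Ddit3*. Of the 13, *Eif2ak3* and *Xbp1* in DG and *Atf6* in *Sst* neurons passed in all 6 alternatives, *Eif2ak3* in L4/5 IT neurons in 0, *Ddit3* in DG neurons in 1, and *Eif2ak3* in *Pvalb* and *Atf4* in *Sst* neurons in 2 each. *Ddit3* passed in 4 of 6 in L4/5 IT and in 5 of 6 in *Sst* neurons. Without the library labelled Sel1L fl/fl 1 it passed in neither of them, nor in DG neurons. Cre RNA was lower in CA1 (0.254 CPM) than in L4/5 IT, DG, *Pvalb* and *Sst* neurons (3.85 to 28.0 CPM in the Sel1L SynCre libraries). The part of Cre in the differences from CA1 was not tested.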

How the results depend on the processing

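The number of tests with higher RNA was 20 in the analysis reported and 21 with DESeq2, 24 with total UMIs, 26 without a filter on low counts, 21 with doublets kept, 20 with names made without integration and 22 after thinning. It ran from 19 to 27 with 1 library left out, where the lone library of a group is assumed to vary like the others, and the number with lower RNA was 0 in all of these. Only in the analysis reported was the share of all genes that passed counted. A rise in these numbers is therefore not read as a result about the members. Of the 20 calls, 17 passed in every alternative. *Atf6* in *Pvalb* neurons (without Sel1L fl/fl 1, Sel1L fl/fl 2 or Sel1L SynCre 1), *Xbp1* in oligodendrocytes (without Sel1L SynCre 1) and *Atf4* in *Sst* neurons (with DESeq2) did not, and 13 other tests passed in at least 1 alternative. The number of interactions fell from 13 to 12 with DESeq2 and to 6 with *Vip* neurons as the reference, and ran from 6 to 9 with 1 library left out. It was 6 without Sel1L fl/fl 1 and 6 without Sel1L SynCre 1. In CA1 neurons *Atf6b*, not called, turned from -0.02 to 0.042 with total UMIs and 0.052 with doublets kept, and *Atf4*, not called, ran from -0.25 to 0.058 with 1 library left out, including 0.035 without Sel1L fl/fl 2. Of 83 further tests that passed in no setting, 32 changed sign in some setting. Overlapping neighbours in the order of levels numbered 92 of 119, 102 of 119 with doublets kept and 96 of 116 on the TMM scale. With the replicate number as a block, 26 tests were higher: 0 calls were lost and 6 gained (*Ddit3* in L2/3 IT and L5/6 NP, *Eif2ak3* in L4/5 IT and *Pvalb*, *Xbp1* in L6b and *Ern1* in *Sst* neurons). Deviations of libraries with the same number correlated at 0.28 to 0.46 in 17 of 18 types and at -0.12 in VLMCs, and the block is also a block for sex, since replicate 1 was male and replicate 2 female in each group. No label says that a number marks a shared litter or day, and there are only 2 pairs, so the unblocked fit is the one reported. Where leaving out a library ended a call, the cause was not tested.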
